A study of Gallus gallus with 6 samples.

Results

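The sex chromosomes Z and W of the chicken held 1704 of the 37420 regions where TCF21 peaks were found in every list of the series, 1691 on Z and 13 on W. They were chosen by position alone: every peak on Z or W was taken, peaks of different lists that overlapped by 1 bp or more were joined, and a joined region was kept as reproducible when it held a peak of each of the 3 lists, as 46.5% of all 80554 joined regions of the series did. The series used adipose-derived chicken preadipocytes, the precursors of fat cells, that stably overexpressed TCF21 from a lentiviral construct named LV-TCF21. All 6 samples were treated with 300 µM oleic acid for 24 h, which starts fat cell differentiation in these cells. There were 3 TCF21 immunoprecipitations with an antibody against the HA tag, and 3 input DNA samples with no antibody. Both groups came from the overexpressing cells, no cells without the construct were analysed here, and the peaks describe an overexpressed, tagged protein. The labels do not give the sex of the birds, nor do they tell separate cultures from repeats of 1 culture, so each SD below may measure technical spread.

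TCF21 is a transcription factor of the basic helix-loop-helix class, which binds short E-box sequences as a dimer with a partner of the same class. In mammals it marks precursors of white fat and other mesenchymal cells. In birds the male has a pair of Z chromosomes and the female has 1 Z and 1 W, and the higher dose of most Z genes in males is only partly evened out. Z carries many genes, among them DMRT1, needed for testis formation, and a tandem repeat close to it, the male hypermethylated locus. The end of its long arm is known for large arrays of gene copies active in the testis, and W is small, gene-poor and rich in repeats. Where these features lie in the coordinates of the peaks was not used here, and neither genes nor sequences were assigned to the regions.

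Each immunoprecipitation gave its own peak list, called list 1, 2 or 3 by the number in its peak names. Z held 2699, 2521 and 2904 of the 59501, 55895 and 57436 peaks of lists 1, 2 and 3, and W held 19, 25 and 19. The pileup is the number of fragments stacked at a peak's summit. The fold enrichment is the pileup over the local control level, with 1 added to both, and (pileup + 1) / fold enrichment − 1 gives back that control level, called the input level here. Input levels are divided by the autosomal mean, taken over the peaks of that list. They had a floor of 0.948, 0.924 and 0.744 fragments in lists 1, 2 and 3, which is 0.437, 0.445 and 0.465 times the autosomal mean. Read totals are not in the lists, so sequencing depth is unknown, and ratios between chromosomes were taken within a list. The list is the replicate, and an exact two-sided sign-flip permutation test over 3 lists cannot go below p = 0.25. No comparison below can therefore pass a threshold of 0.05, and each is given by its size, its SD over lists and its direction in each list.

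TCF21 peaks were sparser on Z than on the autosomes in every list. Over the 82.1 Mb up to its last peak, Z held 32.9, 30.7 and 35.4 peaks per Mb in lists 1, 2 and 3, against 58.98, 55.3 and 56.2 on the 31 autosomes. The ratio was 0.557, 0.555 and 0.629, with a mean of 0.580 ± 0.0425 (SD, n = 3, exact permutation p = 0.25, adjusted p = 0.304 over 17 measures). The highest Z value was below the lowest autosomal value. Against the 5 autosomes of at least 50 Mb, the size class nearest to Z, the ratio was 0.656 ± 0.0440. Chromosome 4, the autosome closest to Z in span, had 50.6, 48.4 and 48.6 peaks per Mb, again above Z in every list. Reproducible regions followed, with 20.6 per Mb on Z and 37.1 per Mb on the autosomes, and they covered 989 kb of Z.

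Peaks on Z were also lower, and so was the input level under them. The median pileup on Z was 11, 11 and 8 fragments in lists 1, 2 and 3, against 15, 15 and 12 on the autosomes, a ratio of 0.711 ± 0.0385. The mean input level on Z was 0.623, 0.638 and 0.612 times the autosomal mean, or 0.624 ± 0.0130. The input level of Z peaks is bounded from below: 44.6%, 44.7% and 39.0% of them were at the floor of their list, where 7.75%, 7.80% and 7.90% of all peaks were. Among peaks above the floor the ratio of mean input levels was 0.737 ± 0.0452. This leaves out the lowest inputs, and far more peaks of Z than of the autosomes, so the 2 sides are not alike. The median fold enrichment, which sets pileup against input, was 5.45, 5.44 and 4.59 on Z and 5.27, 5.21 and 5.16 on the autosomes. Its ratio was 0.989 ± 0.0867, above 1 in lists 1 and 2 and below 1 in list 3, so no direction is given. Without list 3 it was 1.04, and with q-values up to 1e-05 it was 0.998 ± 0.0355. In the stronger 50% of each list it was 0.921 ± 0.0226, and in peaks of reproducible regions 0.972 ± 0.0380. These last 2 were below 1 in every list. The ratio of mean fold enrichment was 0.973, 0.968 and 0.873 in lists 1, 2 and 3, also below 1 in each. The floor also bounds the fold enrichment, since a control level below it could not raise the fold. This bound met more Z peaks than autosomal ones, of which 4.67%, 4.67% and 5.12% were at the floor in lists 1, 2 and 3. The number of copies of Z in the cells and the occupancy of each copy cannot be told apart from pileups in this design.

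**Figure D1:**
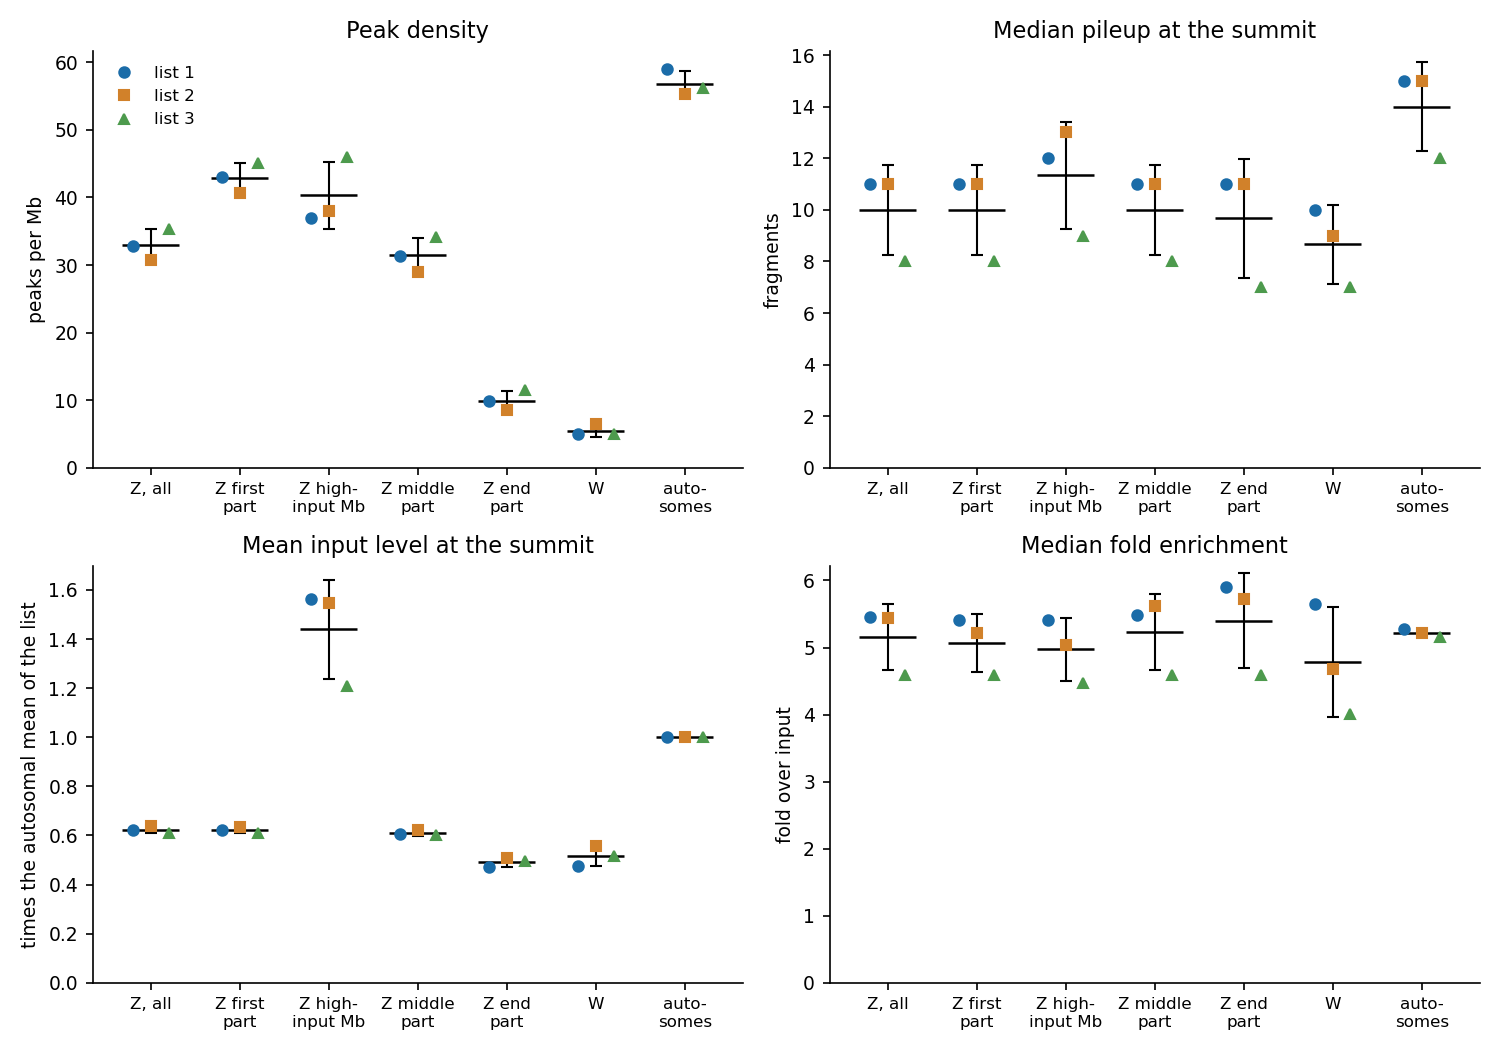
Peaks per Mb, median pileup in fragments, mean input level relative to the autosomal mean, and median fold enrichment for all of Z, its parts (first, 0 to 27 Mb; high-input, 27 to 28 Mb; middle, 28 to 73 Mb; end, from 73 Mb), W and the autosomes. Points are the 3 lists, and lines with bars are their mean and SD. Density and pileup on Z lay below the autosomes in every list, while median fold enrichment overlapped.

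The shortfall of Z regions past a fixed pileup grew as that limit rose, and was smaller and uneven by fold enrichment. A mean pileup of at least 20 fragments was reached by 571 Z regions, or 6.95 per Mb, against 19.1 per Mb on the autosomes, a ratio of 0.364. At 50 fragments the densities were 1.40 and 5.92 per Mb (0.237), and at 100 fragments 0.183 and 1.44 per Mb (0.127), where Z had 15 regions. No Z region reached 200 fragments, and 49 autosomal regions did. These limits are not scaled to the lower pileups of Z peaks, with a median 0.711 and a 90% point 0.650 times the autosomal one. Pileups that are lower throughout can give a ratio that falls with a rising limit, so the fall by itself does not single out strong regions. Whether strong regions fell short more than the others was not tested. By fold enrichment the ratio was 0.502 at a mean fold of at least 10 (520 Z regions) and 0.444 at 20 (157 regions). It was 0.351 at 40 (20 regions) and 0.466 at 60 (3 regions). Those 3 ranked 5, 10 and 17 in the whole series by mean fold. All these ratios include the lower density of Z regions, 20.6 against 37.1 per Mb on the autosomes. As shares of all regions, these 4 fold limits were met by 30.8%, 9.28%, 1.18% and 0.177% on Z. On the autosomes it was 34.0%, 11.6%, 1.87% and 0.211%. A mean pileup of at least 20 fragments was met by 33.8% on Z and 51.4% on the autosomes. A fold of at least 10 in every list was met by 353 Z regions, 20.9% of those on Z, against 23.5% of all reproducible regions and 23.8% of the autosomal ones.

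Regions of the same rank per Mb can be compared without a fixed limit. With 20.6 reproducible regions per Mb on Z and 37.1 on the autosomes, a given rank lies further down the list of Z regions. The ratios below therefore mix the lower density of Z with the level of its regions. The level that 1 region per Mb reached or passed was 60, 60 and 51 fragments on Z in lists 1, 2 and 3, against 122, 117 and 102 on the autosomes, a ratio of 0.502 ± 0.0106 (SD, n = 3). At 5 regions per Mb it was 29, 26 and 22 fragments on Z, against 62, 57 and 49, a ratio of 0.458 ± 0.00947. At 15 regions per Mb the ratio was 0.420 ± 0.0246. The matching ratios of fold enrichment were 0.735 ± 0.0289, 0.644 ± 0.0208 and 0.582 ± 0.0181. On chromosome 4 the pileup ratio at these ranks was 0.959, 0.904 and 0.906, so Z lay below the nearest autosome in span at each of these ranks.

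**Figure D2:**
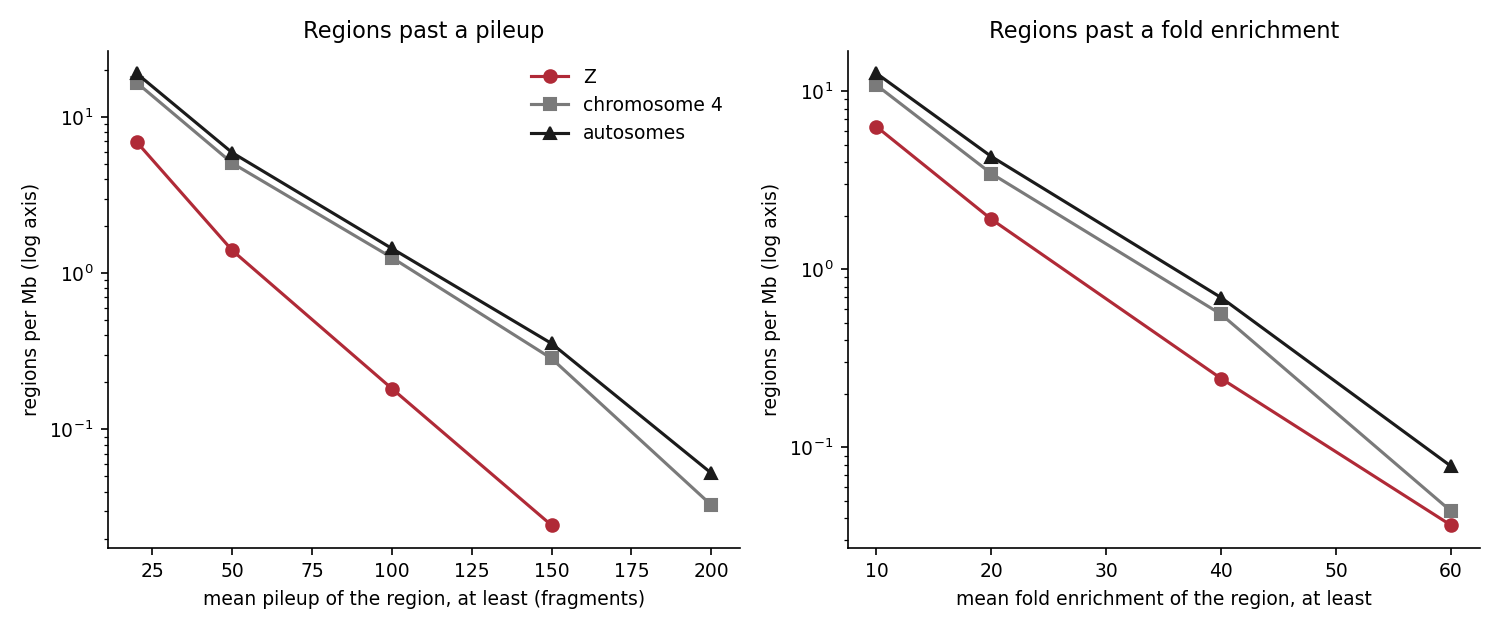
Reproducible regions per Mb (log axis) with a mean pileup, left, or a mean fold enrichment, right, at or above the value on the horizontal axis, for Z, chromosome 4 and all autosomes. At the levels drawn Z lies below both curves; the gap widens along the pileup axis, while at a fold of 60 Z, with 3 regions, is close to chromosome 4. Levels that no region reached are not drawn.

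Among the 25 chromosomes of at least 5 Mb, Z had the lowest density, the lowest mean input level and the lowest mean pileup. The next lowest density was on chromosome 1, with 47.9 ± 1.73 peaks per Mb against 33.0 ± 2.33 on Z. The next lowest input level was on chromosome 13, at 0.833 times the autosomal mean with 0.831 to 0.834 over lists, above the highest list value of Z. The mean pileup of Z was 0.683 ± 0.0349 times the autosomal mean, and that of chromosome 13 was 0.868 ± 0.00487. The median fold enrichment of Z was 5.16 ± 0.496, with 4.59 to 5.45 over lists. Chromosome means ran from 5.15 on chromosome 2 to 5.58 on chromosome 23. The rank of Z by this measure, second from the lowest, is therefore not resolved.

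**Figure D3:**
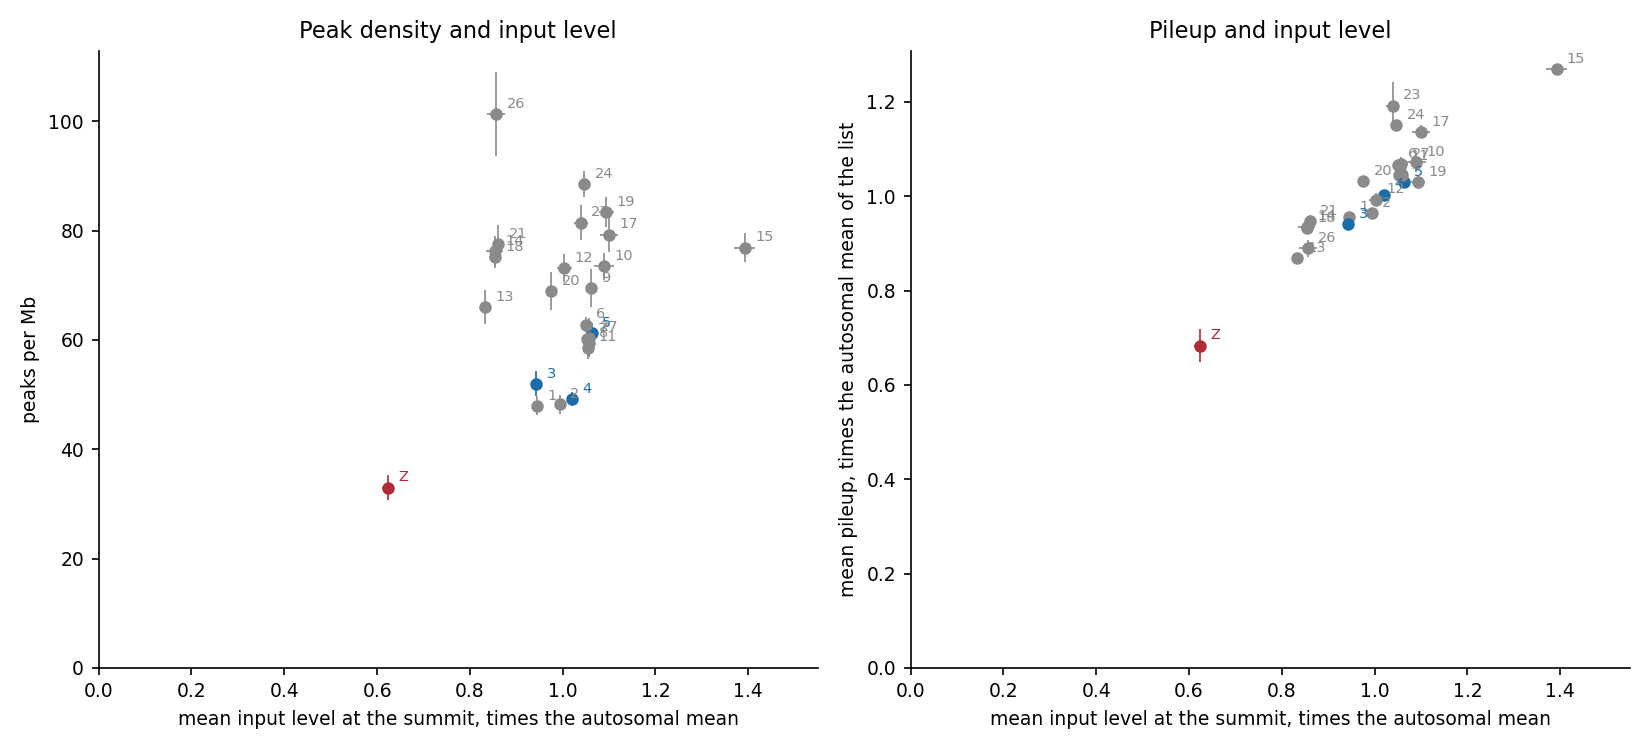
Peaks per Mb, left, and mean pileup relative to the autosomal mean of the list, right, against the mean input level of each of the 25 chromosomes of at least 5 Mb. Points are means over the 3 lists and bars their SD; Z is red, chromosomes 3, 4 and 5 are blue. Z stands apart at the low end of all 3 measures, at an input level of 0.624.

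Set against the few autosomal windows of like input level, which are sparse ones, Z windows held more peaks. Of the whole 1 Mb windows with at least 5 peaks in every list, 77 lay on Z, and the range from the 10% to the 90% point of their input level was 0.527 to 0.653 times the autosomal mean. This range held 61 Z windows and 23 of the 905 autosomal windows. Those 23 lay on chromosomes 1, 2, 3 and 7. All 905 autosomal windows held 57.1 ± 1.93 peaks, more than the Z windows, so the 23 do not stand for autosomal windows in general. The Z windows had 36.0, 33.6 and 38.6 peaks in lists 1, 2 and 3, against 19.5, 18.0 and 22.4 in the autosomal ones, a ratio of 1.81 ± 0.0785 (SD, n = 3, exact permutation p = 0.25). Their relative median pileup was 0.724 ± 0.0414 on Z and 0.674 ± 0.0622 on the autosomes. The ratio within lists was 1.08 ± 0.0424, above 1 in every list. The median fold enrichment was 5.25 ± 0.440 and 4.97 ± 0.486, with a ratio within lists of 1.06 ± 0.0245, also above 1 in every list. Peaks at the floor made up 44.8% of the peaks of a Z window and 35.7% of those of an autosomal window. The set of windows was chosen after the data were seen, and the direction of the density difference is opposite to that against all autosomes.

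Of the 3905 joined regions on Z, 43.3% held a peak of every list, against 46.5% in the whole series and 46.9% on the autosomes. The share of Z peaks that lay in reproducible regions was 64.0%, 68.9% and 59.5% in lists 1, 2 and 3, against 64.6%, 69.2% and 68.5% for autosomal peaks. The difference of −3.25 ± 4.91 percentage points came mainly from list 3, at −8.91 points, against −0.600 and −0.243 in lists 1 and 2. With list 3 left out, regions were joined anew and needed only a peak of lists 1 and 2. Under that changed rule the difference was −1.16 points. In the stronger 50% of each list, joined anew, it was −4.21 ± 0.698 points over the 3 lists. With q-values up to 1e-05 it was −5.34 ± 2.22 points. Both were below 0 in every list, so with weak peaks left out the lower share on Z was not confined to list 3. List 3 also gave 689 of the 1501 Z regions that belonged to 1 list alone, while lists 1 and 2 gave 472 and 340. On Z 23.7% of the list 3 peaks were in regions of that list alone, against 17.9% of all its peaks; in lists 1 and 2 it was 17.5% and 13.5%, against 18.1% and 14.7%. Peaks in Z regions of 1 list alone were weak in each list, with a median pileup of 7, 7 and 5 fragments in lists 1, 2 and 3. On the autosomes such peaks had medians of 8, 8 and 6 fragments. A q-value of at most 0.05 was held by 85.3% of the Z peaks of list 3, and by 96.6% and 95.8% of those of lists 1 and 2, against 90.9% of the autosomal peaks of list 3 and 95.5% and 94.8% of those of lists 1 and 2. Z was thus lower in list 3 and slightly higher in the others.

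In reproducible regions, summits of different lists lay about as close on Z as on the autosomes. Such regions are built from overlapping peaks of every list, so the closeness is partly set by that rule. Between pairs of lists the median distance of summits was 28.7 bp on Z and 25.3 bp on the autosomes, and 88.3% and 90.2% of them lay within 100 bp. Across the 1691 Z regions Spearman's rho between the pileups of a pair of lists was 0.837 ± 0.0136 (SD over pairs), against 0.895 ± 0.00208 across autosomal regions. For fold enrichment rho was 0.726 ± 0.0129 on Z and 0.777 ± 0.00384 on the autosomes, and for the input level 0.138 ± 0.00395 and 0.335 ± 0.0133. These are descriptions across regions of the same 3 libraries, and the floor gives many Z summits a tied input level. At the floor in all 3 lists were 169 Z regions, 9.99% of them, against 1.13% in the whole series and 0.350% on the autosomes.

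Z peaks were slightly narrower than autosomal ones. Their median width was 349, 342 and 319 bp in lists 1, 2 and 3, against 365, 358 and 338 bp on the autosomes. The ratio of 0.952 ± 0.00691 was below 1 in every list. At like pileup the mean of the lists was larger on Z in each class up to 59 fragments and smaller from 60 on. The difference passed the spread between lists only from 10 to 29 fragments. Peaks of 5 to 9 fragments, the class with the most Z peaks, were 253.7 ± 13.2 bp wide on Z and 243.7 ± 3.06 bp on the autosomes, within the spread between lists. Peaks of 10 to 14 fragments had a median width of 338.5 ± 6.50 bp on Z and 299 ± 4.16 bp on the autosomes, and a median fold enrichment of 5.89 ± 0.363 and 4.52 ± 0.348. Peaks of 15 to 29 fragments were 416 ± 13.4 bp and 390 ± 5.86 bp wide. From 30 to 59 fragments the widths were 524 ± 15.3 bp and 521 ± 3.51 bp, and from 60 fragments on 699.7 ± 23.0 bp and 714 ± 1.80 bp. Both pairs differed by less than the spread between lists. Ratios within lists were not taken by pileup class, so a lack of difference is not shown. The fold enrichment was higher on Z in these classes too, at 34.8 ± 1.30 and 27.5 ± 2.41 from 60 fragments on. At like pileup the fold is set by the input level, so these fold differences restate the lower input of Z and are no separate result. Reproducible regions were 509 bp wide in the median on Z and 546 bp on the autosomes, and 83 Z regions held more than 3 peaks.

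Along Z the first 27 Mb were the densest of the 3 long parts. They held 43.0, 40.7 and 45.1 peaks per Mb in lists 1, 2 and 3, against 31.4, 29.02 and 34.1 between 28 and 73 Mb, a ratio of 1.36 ± 0.0402 (SD, n = 3, exact permutation p = 0.25, adjusted p = 0.386). They held 717 reproducible regions, or 26.6 per Mb, and the middle part held 892, or 19.8 per Mb. Each list gave both parts the same median pileup, 11, 11 and 8 fragments, and their mean input levels were 0.623 and 0.611 times the autosomal mean. The mean pileup was higher by a ratio of 1.06 ± 0.0183 in the first part. All 3 Z regions with a mean fold enrichment of at least 60 lay in the first part, 0.418% of its 717 regions, against 0.211% of autosomal regions. With only 3 such regions this was not tested.

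Within these parts the density varied widely. The 82 whole 1 Mb bins of Z held a median of 18 reproducible regions, with quartiles of 10 and 31.5, and 7 bins held at least 40. The fullest bin, from 54 to 55 Mb, had 59 regions and 87, 81 and 92 peaks in lists 1, 2 and 3. The bin from 21 to 22 Mb followed with 52 regions and 70, 80 and 74 peaks. At the other end 4 bins had none, and the bins from 30 to 31 Mb and from 69 to 70 Mb had 2 regions each. In windows of 100 kb, 36.7% of the 821 on Z held no reproducible region, against 20.1% on the autosomes and 26.1% on chromosome 4. At least 10 regions were found in 15 windows, 1.83% of those on Z, against 8.07% on the autosomes.

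The densest 100 kb windows of Z were filled by regions close to the median Z region, which had a mean pileup of 14.3 fragments. The windows at 8900001 to 9000000 and 10400001 to 10500000 held 15 reproducible regions each, from 21, 22 and 22 peaks in the first and 18, 18 and 22 in the second. Their median regions had mean pileups of 15.3 and 14 fragments, and their strongest regions reached 41.0 ± 11.4 and 45.3 ± 4.04 fragments. The window at 23400001 to 23500000 held 14 regions, the strongest of which, at 23442333 to 23442986, had 77.3 ± 2.89 fragments and a fold enrichment of 38.3 ± 4.57. No region in these 3 windows was at the input floor in all lists. A pair of these windows also held the widest Z regions, 2548 bp at 10427784 to 10430331 and 2462 bp at 8899613 to 8902074, the second reaching into its window from the left. They had mean pileups of 28.3 ± 4.16 and 31.7 ± 12.5 fragments, and each joined 6 peaks. The third widest, 2218 bp at 52948157 to 52950374, was stronger, with 121, 102 and 84 fragments in lists 1, 2 and 3. Neighbours were farther apart than elsewhere: 59.2% of Z regions had another within 10 kb, against 73.4% of autosomal regions, and the median gap was 15.9 and 9.03 kb.

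From 73 Mb to the end Z was the sparsest, and 4 whole 1 Mb bins there held no peak of any list. It had 9.84, 8.53 and 11.5 peaks per Mb in lists 1, 2 and 3, against 31.4, 29.02 and 34.1 between 28 and 73 Mb, a ratio of 0.315 ± 0.0214 (SD, n = 3, exact permutation p = 0.25, adjusted p = 0.354). The 55 reproducible regions of the end part were 3 before and 52 after a stretch without any, from 73285760 to 78545986. This stretch of 5.26 Mb was the longest on any chromosome of at least 5 Mb, followed by 1.39 Mb on chromosome 4. Assembly gaps and sequence where reads cannot be placed were not assessed, so a lack of peaks need not be a lack of TCF21. It held 1 peak of each list, with at most 11 fragments, and the 4 bins without a peak ran from 74 to 78 Mb. After it, 14.4 regions per Mb were found. Without the stretch the peak density of the end part was 0.733 ± 0.0510 times that of the middle part, still lower in every list. The other long stretches without a reproducible region were 1.24 Mb at 64166979 to 65404899, with 3, 3 and 5 peaks, and 0.973 Mb at 79947309 to 80920101, with no peak in any list. A further 0.878 Mb at 29647800 to 30526037 and 0.863 Mb at 42368247 to 43230989 held 1, 4 and 7 and 2, 1 and 1 peaks in lists 1, 2 and 3.

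Peaks of the end part were more often at the input floor than those of the middle part. Of its 90, 78 and 105 peaks in lists 1, 2 and 3, 90.0%, 82.1% and 72.4% were at the input floor. In the middle part it was 45.8%, 45.2% and 38.7%. Few peaks of the end part therefore lay above the floor. The mean input level was 0.470, 0.506 and 0.498 times the autosomal mean, close to the floor of 0.437, 0.445 and 0.465, so a lower level could not have been seen. Among peaks above the floor the mean input level was 0.965 ± 0.102 times that of the middle part, above 1 in lists 1 and 2 and below it in list 3, so no direction is given for them. At 32 of the 55 regions, 58.2%, all 3 lists were at the floor. The median pileup was 11, 11 and 7 fragments, against 11, 11 and 8 in the middle part. The strongest region, at 78613410 to 78614285, had 57, 54 and 62 fragments in lists 1, 2 and 3 and a fold enrichment of 31.0 ± 4.66, with summits within 4 bp. The next, at 81569325 to 81570309, had 61, 57 and 47 fragments and a fold of 29.8 ± 2.17. The third, at 78694622 to 78695213, had 46, 46 and 41 fragments and a fold of 24.2 ± 0.187. Each stood above 20-fold in every list, on pileups well under those of the strongest regions elsewhere on Z.

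The single Mb from 27 to 28 Mb was set apart because it was known to hold sites of high input, so its input levels are a description and show nothing about where such sites lie. It held 27 reproducible regions, and 5 of them, between 27268224 and 27314127, reached 2 times the autosomal mean input or more in all 3 lists, as 0.200% of all reproducible regions did. The highest level was at 27313321 to 27314127, with 12.01, 9.45 and 5.61 times the autosomal mean in lists 1, 2 and 3. Its pileup of 55, 53 and 41 fragments gave a fold enrichment of only 2.07, 2.62 and 4.21. The summits of this region lay up to 496 bp apart, so the lists were not read at the same position. The region at 27307047 to 27307526 had 6.97, 5.75 and 5.18 times the mean, a pileup of 87, 89 and 76 fragments and a fold of 6.90 ± 1.42. These 2 regions passed 5 times the mean in every list, as 8 of all 37420 regions (0.0214%) and 2 autosomal regions did.

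The other 3 sites of the run differed in their enrichment. The region at 27309921 to 27310387 had the highest pileup of this Mb, 91, 85 and 79 fragments, with summits within 1 bp of each other. On an input of 4.28 ± 0.688 times the mean its fold was 9.40 ± 1.26. Just beyond it, the region at 27310543 to 27311048 had 32, 29 and 34 fragments on a like input of 4.14 ± 0.866 times. Its fold was 3.84 ± 1.51, with summits up to 253 bp apart. The region at 27268224 to 27269061 had an input of 3.10, 4.52 and 8.95 times the mean in lists 1, 2 and 3. Its fold was 5.83, 4.33 and 2.02 in the same lists. Its summits lay up to 553 bp apart, so the lists were not read at the same position. The fold is computed from the input level, so their opposite order is no separate result. A sixth region outside the run, at 27170479 to 27170999, had 84, 86 and 59 fragments but an input that differed between lists, at 1.94, 0.821 and 3.77 times. The 22 regions of this Mb outside the run had a median input of 0.581 times the mean and a median fold of 6.07, against 5.52 times and 4.06 in the run. Without this Mb the mean input level of Z was 0.612 ± 0.0110 times that of the autosomes.

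**Figure D4:**
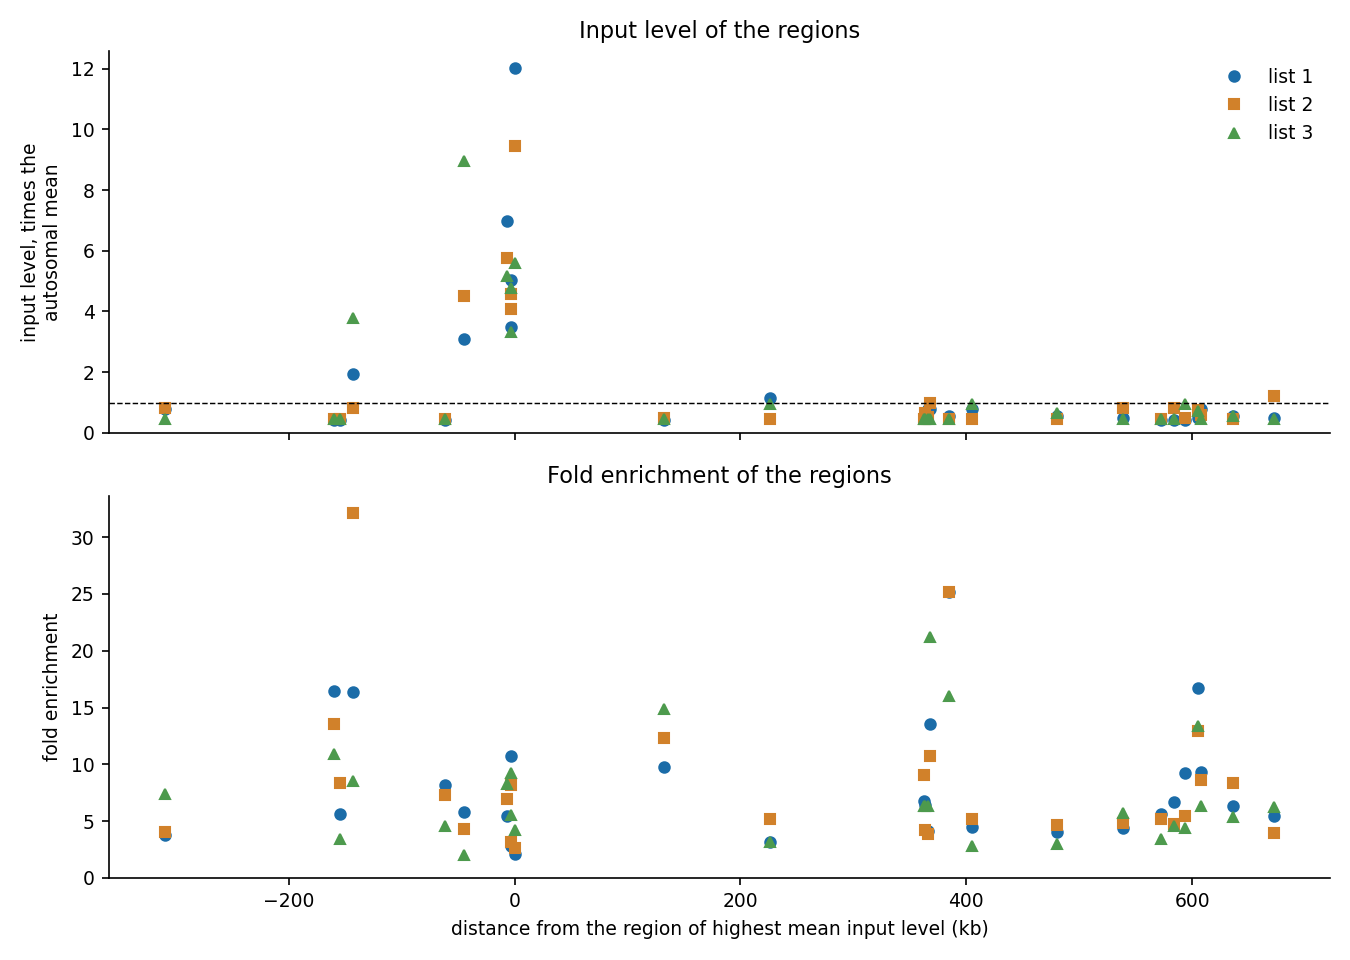
Input level relative to the autosomal mean, top, and fold enrichment, bottom, of the 27 reproducible regions between 27 and 28 Mb on Z, by their distance in kb from the region with the highest mean input level. Points are the 3 lists and the dashed line is the autosomal mean. High input levels are gathered close to 0, and regions farther to the right mostly lie below the dashed line.

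Of the 15 Z regions with a mean pileup of at least 100 fragments, 9 lay in the first part and 6 in the middle part. They made up 1.26% of the 717 regions of the first part and 0.673% of the 892 of the middle part, a difference that was not tested. The highest of the 15, at 2135586 to 2137067, had 185, 181 and 166 fragments in lists 1, 2 and 3. Its mean of 177 ± 10.0 ranked 125 in the whole series. Its fold enrichment of 52.8, 67.3 and 95.8 varied more than its pileup, since the input level under it was 1.16, 0.821 and 0.465 times the autosomal mean, the last at the floor. Nearer the start of Z, 3 others of the 15 lay close together. Of these, the region at 1037476 to 1039064 had 162, 167 and 150 fragments and a fold of 70.8 ± 10.7, with summits within 9 bp. Regions at 1013169 to 1014586 and 1044213 to 1045343, on either side of it, had 127, 117 and 99 and 120, 119 and 86 fragments. The region at 18205077 to 18205926 had 177, 135 and 131 fragments and the highest mean fold of Z, 79.2 ± 10.8, at the input floor in all lists.

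The remaining 7 of the 12 highest had mean pileups between 107 and 138 fragments. In the first part, the regions at 21217144 to 21218241 and 26590419 to 26591752 had 125 ± 21.5 and 124 ± 6 fragments, and the summits of the second were up to 533 bp apart. In the middle part, the region at 55772436 to 55773530 led with 158, 136 and 119 fragments and a fold of 49.1 ± 13.1. The region at 56302334 to 56303343 had 118 ± 13.0 fragments, that at 32507495 to 32508756 had 115 ± 17.2, and that at 52943255 to 52944719 had 114 ± 7.51 with summits within 2 bp. The last of the 12, at 63060032 to 63060725, had 107, 133 and 82 fragments. Means that follow each other here mostly differ by less than their SDs, so the order is not resolved. By mean fold enrichment, the region at 8861407 to 8862103 also came among the 5 highest, with 109, 106 and 98 fragments and a fold of 52.9 ± 5.77.

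W held few peaks, and none of them exceeded 29 fragments. Its 3.81 Mb up to the last peak had 4.99, 6.56 and 4.99 peaks per Mb in lists 1, 2 and 3, against 58.98, 55.3 and 56.2 on the autosomes, a ratio of 0.0973 ± 0.0186 (SD, n = 3, exact permutation p = 0.25, adjusted p = 0.327). The highest pileup on W was 23, 29 and 22 fragments, and the median 10, 9 and 7, against medians of 15, 15 and 12 on the autosomes. At the input floor were 16 of 19, 19 of 25 and 8 of 19 peaks. Of the 30 joined regions 13 (43.3%) were reproducible, against 46.5% in the whole series. Another 7 held peaks of 2 lists and 10 of 1 list. The reproducible ones lay in 2 clusters, 7 regions up to 916878 and 6 from 3155518 on, with 2.24 Mb between them that held 10 peaks of the lists in all.

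The strongest W region, at 3758145 to 3758612, had 23, 29 and 22 fragments in lists 1, 2 and 3 and a fold enrichment of 12.3, 15.6 and 9.17. The region at 3286963 to 3287443 was the steadiest of the stronger ones, with 19, 21 and 19 fragments and a fold of 11.03 ± 0.666. It was the only one past 10-fold in every list, 7.69% of the 13 W regions, against 23.5% of all reproducible regions. Regions at 225141 to 225760 and 770359 to 770981 had 22, 26 and 13 and 23, 19 and 14 fragments, with folds of 8.85 ± 1.02 and 10.4 ± 1.86. At 810302 to 810717 the pileup was 20, 16 and 11 fragments, and at 3446770 to 3447168 it was 17, 13 and 10. The regions at 879225 to 879645 and 916286 to 916878 had 10.7 ± 3.51 and 12 ± 2.65 fragments. The other 5 had mean pileups of 5.33 to 8 fragments and mean folds of 3.31 to 4.82: they lay at 160449 to 160854, 230340 to 230570, 3155518 to 3155895, 3717159 to 3717878 and 3755282 to 3755598. No W region had an input level above 1.23 times the autosomal mean in any list.

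**Figure D5:**
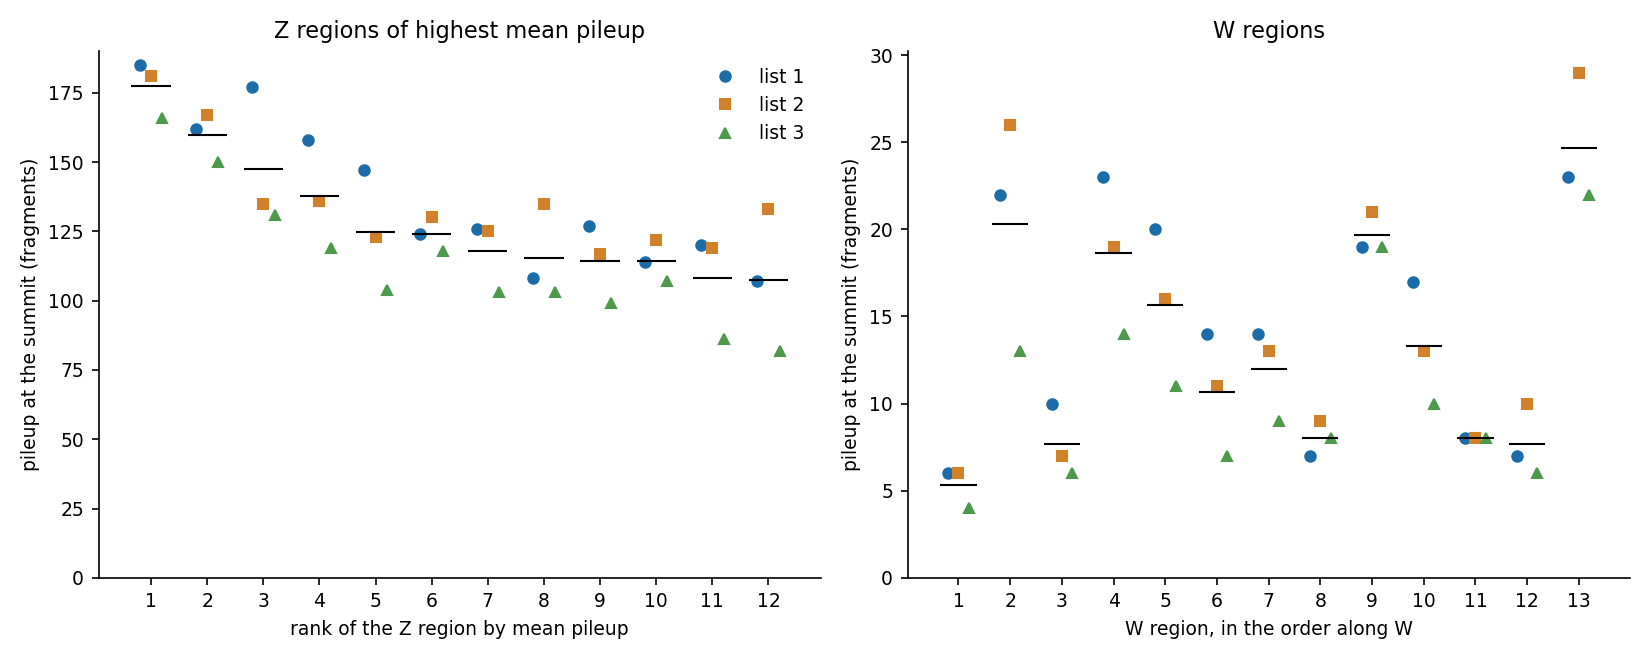
Pileup at the summit in fragments of the 12 Z regions with the highest mean pileup, left, and of the 13 reproducible W regions in their order along W, right; the vertical scales differ. Points are the 3 lists and lines their mean. List 3 is the lowest at most regions, and the highest W value, 29 fragments, is below every value on the left.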

How the data were processed

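The files are 3 peak lists of TCF21 immunoprecipitations, 1 per immunoprecipitation. Per the submitters' processing notes, Trimmomatic 0.36, STAR 2.5.3a, MACS2, bedtools and HOMER were used, without the role of each. The file headers have the column names MACS2 gives its peaks. Pileup, a deposited signal, is in whole fragments and not scaled for depth. The fold enrichment is a deposited ratio to the local control, and the −log10 p-value and q-value of each peak are deposited too, down to a p-value of 0.01. Summit and width are as deposited. The calling threshold and the control library behind a list are not stated in the labels or headers. They do not name the genome build either, though unplaced scaffolds carry names that start with AADN04. The gene table at hand is of GRCg7b, which was not shown to be the same build, and it was not used to place genes.

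Peaks were joined and compared with Python 3.11.15, pandas 2.3.3, numpy 2.4.6 and scipy 1.17.1, in steps tested on simulated lists. A list with more than 1 peak in a region entered with the one of highest fold enrichment. Peaks were put into parts of Z by summit and regions by midpoint. Autosomes are the 31 numbered chromosomes, and spans end at the last peak of any list. Densities on Z, W and the autosomes count every position of a span, with no allowance for gaps or repeats. A peak was at the floor when its input level was within 0.5% of the lowest of its list. Ratios were tested within lists by an exact sign-flip permutation of their log2, shares by that of their difference, with Benjamini-Hochberg adjustment over the 17 measures of a comparison. Regions were named by fixed rules: the 12 highest in pileup and 5 in fold enrichment, the 3 highest of each part, the 3 widest, high-input sites, all of W, and the densest windows and longest empty stretches. The sites at 27268224 and 27310543 and the strongest region of a dense window, at 23442333, fall outside these rules and were chosen after their values were seen. The members and rules were chosen with earlier results of these data known.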

Additional observations from a re-analysis of the deposited data

How the results depend on the processing

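With peaks limited to q-values up to 1e-05, 957 reproducible regions on Z, against 1691, and 7 on W, against 13, were counted; with the stronger 50% of every list it was 875 and 6, since fewer peaks enter. At least 2 lists gave 20 W regions. A reciprocal overlap of 50% gave 1521 Z and 11 W regions, and leaving out each list gave 1913 to 1965 and 13 to 17. Whenever a list was left out, regions were joined anew and needed a peak of both remaining lists. The density ratio of Z to the autosomes, 0.580, turned to 1.81 in 1 Mb windows of like input level, where only 23 of 905 autosomal windows entered. The cause was not tested. The ratio lay at 0.507 to 0.656 under the other 9 alternatives. The ratio of median fold enrichment, 0.989, was 0.962 to 1.04 without each list and turned above 1 without list 3; the other 6 alternatives gave 0.921 to 0.998. The ratios of pileup (0.683 to 0.790), width (0.910 to 0.965) and input level (0.548 to 0.737) kept their direction under each alternative run. The difference in the reproducible share ran from −5.34 to −1.16 percentage points, and the density of the end part over the middle part from 0.297 to 0.733, the highest without the empty stretch. Its input level over that of the middle part, 0.805, ran from 0.766 to 0.965, the highest without peaks at the floor.

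No paired analysis was possible because input samples have no values of their own in the lists, whose numbers were not matched to replicates. The windows, the q-value limit of 0.05, the fold limit of 10 and the removed stretch were chosen after seeing the data. Depth is unknown and was not varied. The floor hides any lower input level and bounds the fold enrichment of peaks at it.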
